A study of Saccharomyces cerevisiae with 4 samples.

Results

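The genes described here encode the mitochondrial carriers of Saccharomyces cerevisiae and the outer membrane porins, 32 genes of the 6720 gene rows in the deposited expression table. They were taken by name: the inner membrane carrier family with its peroxisomal member ANT1, its outer membrane member UGO1, and the porin genes POR1 and POR2. All 32 had a row and all 32 entered the test, which used the 6355 gene rows whose mean reached 1 FPKM. FPKM is a level corrected for the length of the gene and for the total of mapped fragments in its library. Cells labelled wild type, with no further strain name, grew at 30 °C in synthetic complete medium that held 2% glucose in the non-restricted condition (NR) or 0.05% glucose in the calorie-restricted condition (CR). Total RNA was sequenced from replicates A and B of each condition, 4 libraries in all, which the labels call biological replicates. When the cultures were harvested, and at what density, is not stated in the sources used here. Where 4 values of a gene follow each other, they stand in the order NR replicate A, NR replicate B, CR replicate A, CR replicate B.

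Carriers of this family are small proteins built from repeated pairs of membrane-spanning helices, and each moves a particular metabolite, often in exchange for another, across the inner mitochondrial membrane. Porins are beta-barrel channels that let small metabolites cross the outer membrane before they reach a carrier. In yeast, growth without fermentable sugar depends on exchange of ADP for ATP, on phosphate entry, and on the exchange of carboxylates between the tricarboxylic acid cycle in mitochondria and the glyoxylate cycle and glucose synthesis outside them.

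Of the 32 genes, 9 rose in CR (SFC1, ODC1, DIC1, LEU5, MRS4, AAC1, UGO1, SAL1 and PET8) and 6 fell (YMC2, AAC3, FLX1, ODC2, OAC1 and POR2), while 17 did not pass the test. That is 28.1% higher and 18.8% lower, beside 17.7% higher and 13.2% lower among all 6355 genes. The median log2 fold was 0.24 over the 32 genes and 0.06 over all genes. The largest rises were among carboxylate carriers, where SFC1 rose 36.4-fold (20.5-fold without CR B) and ODC1 8.10-fold while ODC2 and OAC1 fell. Values were tested as log2(FPKM + 1) with limma, two-sided, and p-values were adjusted by the Benjamini-Hochberg method over all 6355 genes, with a threshold of 0.05. Log2 folds are differences on this scale and are too small for genes of low level. The CR libraries were both above both NR libraries for 17 of the 32 genes, beside 39.2% of all genes, and below them for 9, beside 33.8% of all genes. Only SFC1 and ODC1 passed in each of the 4 fits with a library left out. The other 13 calls were lost without NR A and without NR B, where the CR pair alone sets the spread. Higher calls were 57.4% of all calls as deposited and 44.9% after the libraries were scaled to a common median. That scaling shifted the median log2 fold over all genes from 0.06 to -0.07. The 32 genes then had 8 higher and 6 lower, beside 15.0% higher and 18.5% lower among all genes.

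**Figure D1:**
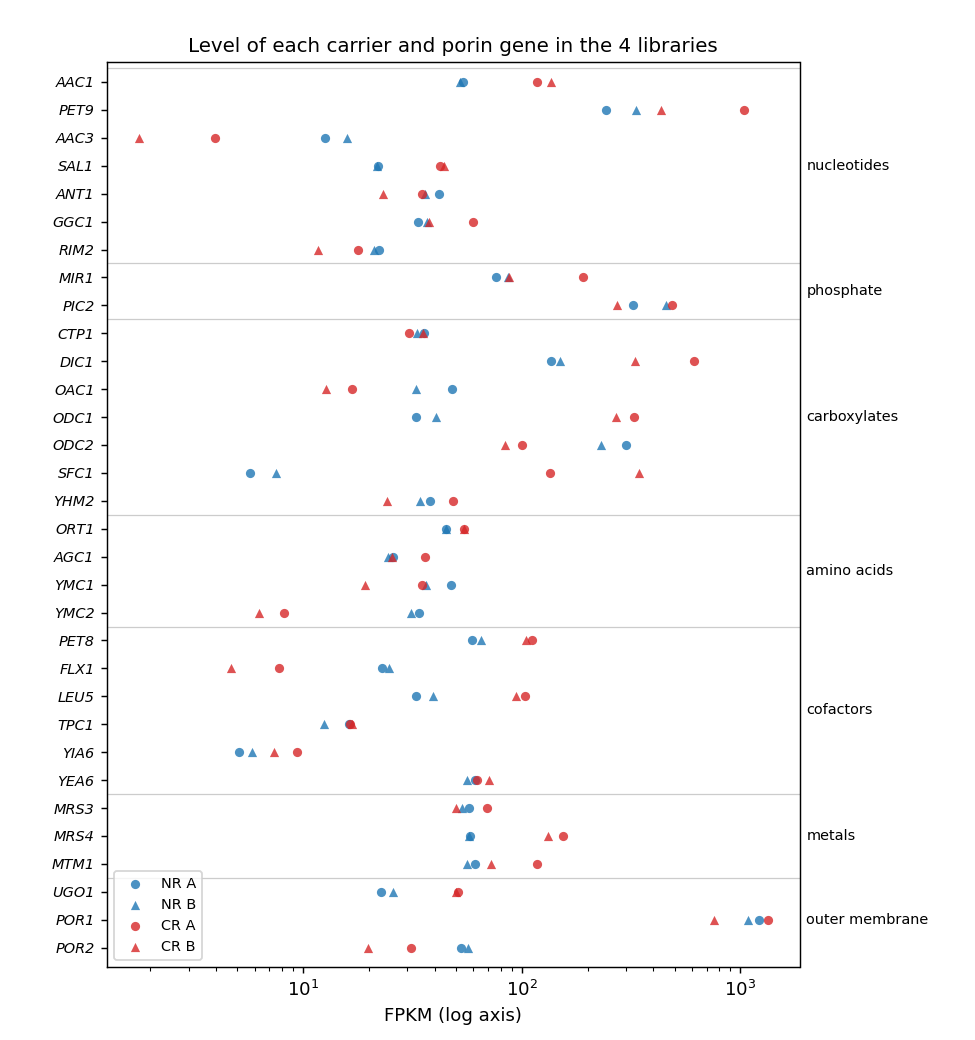
FPKM of each carrier and porin gene (log axis) in NR A and NR B (blue) and CR A and CR B (red), with circles for replicate A and triangles for replicate B. Genes are grouped by what the protein carries or, for UGO1, POR1 and POR2, by its place in the outer membrane. MTM1 was placed under metals, which is not a statement of what it carries. ODC1 and ODC2 exchange places between the conditions, SFC1 shows the widest gap, and POR1 has the highest level in all 4 libraries.

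The libraries differed in ways that touch the values. The median FPKM of gene rows ran from 48.6 to 57.6, with CR B at 52.8. The 413 rows without a gene ID, however, held 87.2% of all summed FPKM in CR B and 27.4% to 34.0% in the other 3 libraries. CR A was above CR B for 25 of the 32 genes (median ratio 1.36), beside 61.8% of all genes (median ratio 1.11). CR A was 1.5 times CR B or more for 10 of the 17 genes that did not pass and 4 of the 15 that did. This difference enters the spread that the test uses, so the contrast between these counts is partly built in. SFC1, which passed, differed the other way, with CR A at 0.392 times CR B. The part of the rows without a gene ID in the differences between CR A and CR B was not tested. With 2 libraries against 2, permutation alone cannot reach 0.05, and the p-values measure only the spread between these libraries. In RNA from a whole culture, fewer cells with a transcript and less of it per cell cannot be told apart.

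SFC1 encodes the succinate-fumarate carrier, which brings succinate from the glyoxylate cycle into mitochondria in exchange for fumarate. SFC1 (YJR095W, chromosome X, 609773 to 610741 in R64, plus strand, 1 coding exon) was at 5.71, 7.47, 135 and 345 FPKM. Both CR libraries were far above both NR libraries, and CR B was the higher of the pair. The mean went from 6.59 ± 1.25 to 240.1 ± 148 FPKM (SD, n = 2), a log2 fold of 4.85 (SE 0.46, limma adjusted p = 0.0047). The mean was 36.4-fold higher in CR with all libraries, 20.5-fold without CR B (log2 fold 4.18) and 52.3-fold without CR A (log2 fold 5.52). By mean FPKM it ranked 31 of the 32 genes in NR and 6 in CR.

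ODC1 and ODC2 encode carriers of 2-oxoglutarate, 2-oxoadipate and other oxodicarboxylates, and the pair changed in opposite directions. ODC1 (YPL134C, XVI, 298571 to 299503, minus strand) was at 32.9, 40.5, 326 and 268 FPKM, so that each CR library held several times the level of either NR library. Its log2 fold was 2.98 (SE 0.22, limma adjusted p = 0.0028). ODC2 (YOR222W, XV, 758330 to 759253, plus strand) was at 300.1, 232, 101 and 83.4 FPKM, with both CR libraries below both NR libraries, a 2.89-fold lower mean and a log2 fold of -1.51 (SE 0.24, limma adjusted p = 0.013). ODC1 thus made up 9.87% and 14.9% of the summed FPKM of the pair in NR but 76.4% and 76.3% in CR. The sum itself ran from 272 to 333 FPKM in NR and from 352 to 426 in CR, a mean 1.29 times as high in CR. The coding sequences of the pair shared 67.5% of 907 aligned bases. Every 32-nt stretch of each of the 32 genes was unique in the genome, so that exact reads of 32 nt or more differ between paralogs. Shorter reads and matches with mismatches were not examined.

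The promoter windows of ODC1, ODC2 and DIC1 are shown for the paralogs that changed in opposite directions and for another carboxylate carrier gene that rose. Each window covers 250 bases before the start codon and 50 bases from it onward, 5′ to 3′ along the gene, read from the RefSeq genome R64. Capitals mark matches, on either strand, to letters recognised by regulators of carbon, nitrogen and respiratory genes: CCAAT (Hap2/3/4/5), CC and CCG separated by 6 bases (Cat8 and Sip4), CCGG and CCGG separated by 2 bases (Leu3), TGACTC (Gcn4), GTCAC (Rtg1/3), TGCACCC (Aft1) and AGGGG (Msn2/4).
ODC1, chrXVI:299454-299753, minus strand: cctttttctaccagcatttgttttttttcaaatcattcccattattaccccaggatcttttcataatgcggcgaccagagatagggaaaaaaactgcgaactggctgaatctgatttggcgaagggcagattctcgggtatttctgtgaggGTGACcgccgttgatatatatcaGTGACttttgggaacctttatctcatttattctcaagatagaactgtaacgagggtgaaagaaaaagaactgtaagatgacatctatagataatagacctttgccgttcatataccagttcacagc
ODC2, chrXV:758080-758379, plus strand: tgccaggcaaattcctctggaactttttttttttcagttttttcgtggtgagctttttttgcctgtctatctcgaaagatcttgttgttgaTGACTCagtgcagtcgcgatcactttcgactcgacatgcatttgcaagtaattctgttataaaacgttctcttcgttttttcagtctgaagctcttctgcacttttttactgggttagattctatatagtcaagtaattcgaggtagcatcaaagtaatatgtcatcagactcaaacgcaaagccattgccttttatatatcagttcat
DIC1, chrXII:827824-828123, minus strand: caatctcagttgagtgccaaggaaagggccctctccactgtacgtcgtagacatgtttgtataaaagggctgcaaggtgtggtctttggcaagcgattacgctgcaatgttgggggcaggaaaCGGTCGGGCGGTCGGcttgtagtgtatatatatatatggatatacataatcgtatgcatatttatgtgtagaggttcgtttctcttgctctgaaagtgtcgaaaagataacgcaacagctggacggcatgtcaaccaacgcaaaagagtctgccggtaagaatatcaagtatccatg

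The ODC1 window held the Rtg1/3 letters at 2 places, 99 and 76 bases before the start codon, and the ODC2 window held none of them but had the Gcn4 letters 159 bases before it. DIC1 had 2 overlapping matches to the Cat8 and Sip4 letters, 127 and 123 bases before it. Among the 31 members searched, which leave out SFC1, the Gcn4 letters were in 8 of 31 windows, beside 479 of 6001 protein-coding genes (7.98%). These 8 held 3 genes that fell (ODC2, YMC2 and FLX1) and 5 that did not pass. CCAAT was in 18 of the 31 windows, beside 43.3% of all, and these 18 held 5 genes that rose, 3 that fell and 10 that did not pass. The Cat8 and Sip4 letters were in 3 (10.2% of all), with 2 genes that rose, DIC1 and MRS4, and MIR1, which did not pass. The Rtg1/3 letters were in 10 (26.4%), with 2 genes that rose, ODC1 and AAC1, 2 that fell, OAC1 and YMC2, and 6 that did not pass. The Msn2/4 letters were in 7 (21.6%), with 1 gene that rose, 1 that fell and 5 that did not pass. The Aft1 letters were in 1, PET8 (1.30%), and the Leu3 letters in 0 (0.133%). The Rtg1/3 match overlapped the Gcn4 match in GGC1 and ORT1. Some matches lay in the coding part of the window. The only Rtg1/3 match of AAC1 was there, at base 30, as were the only CCAAT matches of PIC2, AGC1, YMC2 and MRS3. All of these are matches of letters and not measured binding sites.

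DIC1 encodes the carrier that takes malate or succinate into mitochondria in exchange for phosphate. DIC1 (YLR348C, XII, 826977 to 827873, minus strand) was at 137, 149, 614 and 329 FPKM and rose by a log2 fold of 1.65 (SE 0.34, limma adjusted p = 0.023). Its row overlaps YLR349W on the other strand, which was at 156, 199.9, 462 and 3011 FPKM, with CR B far above the rest, and without known strand use their reads cannot be told apart. The DIC1 values run the other way, with CR A above CR B. DIC1 lost its call without the filter on low values.

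OAC1 encodes a carrier of oxaloacetate and sulfate that also exports isopropylmalate, a precursor of leucine. OAC1 (YKL120W, XI, 217344 to 218318, plus strand) was at 48.0, 32.9, 16.8 and 12.7 FPKM and fell, with a log2 fold of -1.39 (SE 0.28, limma adjusted p = 0.021). The groups did not overlap, and the call was lost without the filter on low values. The citrate carrier genes did not pass. CTP1 was at 34.4 ± 1.92 FPKM (NR) and 32.9 ± 3.42 (CR), and YHM2, whose product exchanges citrate for oxoglutarate, at 36.1 ± 2.77 and 36.4 ± 17.1. YHM2 was highest in CR A (48.5 FPKM) and lowest in CR B (24.3), on either side of NR. The 7 carboxylate carriers together had 18.4% and 16.2% of the summed FPKM of all 32 genes in NR and 23.2% and 30.3% in CR.

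**Figure D2:**
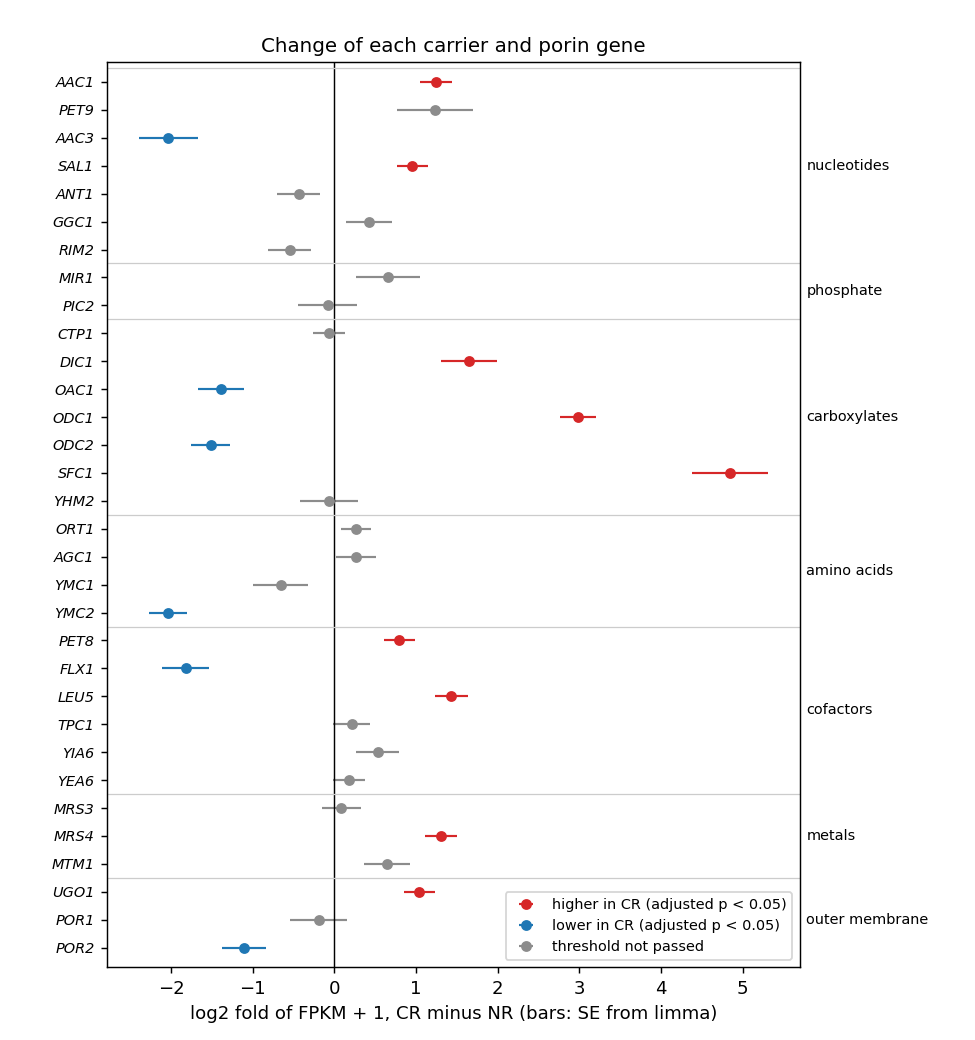
Log2 fold of FPKM + 1, CR minus NR, for each of the 32 genes with the standard error from limma, red for genes higher and blue for genes lower at an adjusted p under 0.05 and grey for the rest. Carboxylate carriers span the range from -1.51 (ODC2) to 4.85 (SFC1).

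The ADP/ATP carriers send ATP made in mitochondria to the cytosol and return ADP. PET9, also called AAC2, encodes the main isoform, AAC1 a minor one, and AAC3 an isoform known from growth without oxygen. PET9 (YBL030C, II, 163041 to 163997) was at 243, 333, 1037 and 433 FPKM. Both CR libraries were above both NR libraries, but CR A was 2.39 times CR B, and PET9 did not pass (log2 fold 1.23, SE 0.46, limma adjusted p = 0.097). Its log2 fold was 1.86 without CR B and 0.61 without CR A, beside 1.23 with all libraries. AAC1 (YMR056C, XIII, 387315 to 388244) rose with a nearly equal log2 fold of 1.24 and a smaller error (SE 0.20, limma adjusted p = 0.013), from 53.9 and 52.0 FPKM to 118 and 136.

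AAC3 (YBR085W, II, 415983 to 416906) fell from 12.6 and 15.8 FPKM to 3.97 and 1.77, a 4.97-fold lower mean (log2 fold -2.03, SE 0.36, limma adjusted p = 0.017). Without CR A the mean was 8.06-fold lower (log2 fold -2.45) and without CR B 3.59-fold (log2 fold -1.61). AAC3 was the lowest of the 32 genes in both CR libraries. If the lowest value above 0 among long genes stands for 1 fragment, the AAC3 value in CR B rests on about 87 fragments. Of the summed FPKM of the 3 isoform genes, AAC3 was 4.08% and 3.96% in NR and 0.342% and 0.310% in CR. The share of AAC1 did not separate the conditions, at 17.4%, 13.0%, 10.2% and 23.8%, and the sum, which was not tested, was 310, 401, 1159 and 571 FPKM.

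SAL1 encodes a calcium-regulated carrier that exchanges ATP-Mg for phosphate and adds a second route for adenine nucleotides. SAL1 (YNL083W, XIV, 471377 to 472861) rose from 22.0 and 21.7 FPKM to 42.5 and 44.2, with close replicates in both conditions (log2 fold 0.96, SE 0.19, limma adjusted p = 0.020). ANT1, the adenine nucleotide carrier of peroxisomes, was at 38.9 ± 3.85 FPKM (NR) and 29.1 ± 8.38 (CR) and did not pass (limma adjusted p = 0.25). GGC1, the GTP/GDP carrier gene (35.2 ± 2.57 and 48.7 ± 15.9), and RIM2, the pyrimidine nucleotide carrier gene (21.6 ± 0.756 and 14.8 ± 4.33), did not pass either. ANT1 and RIM2 passed as lower without CR A (log2 fold -0.72 and -0.83), and GGC1 as higher without CR B (0.76).

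Phosphate enters mitochondria mainly through the product of MIR1, while PIC2 encodes a second phosphate carrier that also moves copper. PIC2 (YER053C, V, 258737 to 259639) had the higher FPKM of the pair in all 4 libraries, at 324, 455, 485 and 271, beside 76.2, 86.4, 190 and 87.3 for MIR1 (YJR077C, X, 577255 to 578190). Neither passed, with limma adjusted p = 0.88 for PIC2 and 0.24 for MIR1. MIR1 in CR B was barely above NR B, and its log2 fold was 1.22 without CR B and 0.10 without CR A. The share of MIR1 in the pair was 19.0% and 16.0% in NR and 28.1% and 24.3% in CR, groups that did not overlap.

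YMC1 and YMC2 encode paralogous carriers linked to glutamate and glycine metabolism. YMC2 (YBR104W, II, 449667 to 450656) fell from 34.0 and 31.2 FPKM to 8.18 and 6.28, a 4.51-fold lower mean (log2 fold -2.04, SE 0.23, limma adjusted p = 0.0064), the lowest adjusted p among the 6 genes that fell. YMC1 (YPR058W, XVI, 673751 to 674674) was at 47.4, 36.5, 35.1 and 19.2 FPKM and did not pass (limma adjusted p = 0.19). YMC1 overlaps YPR059C on the other strand, so that its reads may include those of that row. The log2 fold of YMC1 was -1.07 without CR A and -0.24 without CR B. The share of YMC2 in the pair went from 41.8% and 46.0% in NR to 18.9% and 24.6% in CR. The gene of the ornithine carrier, ORT1, had nearly equal replicates, at 44.8 and 45.0 FPKM in NR and 54.3 in both CR libraries, and did not pass (log2 fold 0.27, limma adjusted p = 0.30). AGC1, the aspartate-glutamate carrier gene, was at 25.1 ± 0.888 and 30.8 ± 7.62 FPKM and did not pass.

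Of the 6 cofactor carriers, 2 rose and 1 fell, beside 17.7% higher and 13.2% lower among all genes. LEU5 (YHR002W, VIII, 108812 to 109885), required for coenzyme A in mitochondria, rose from 32.9 and 39.3 FPKM to 104 and 94.1 (log2 fold 1.43, SE 0.20, limma adjusted p = 0.010). PET8 (YNL003C, XIV, 624975 to 625829), the S-adenosylmethionine carrier gene, rose from 59.0 and 64.9 FPKM to 112 and 105 (log2 fold 0.80, SE 0.19, limma adjusted p = 0.033), a call lost after median scaling and after quantile normalization. FLX1, which encodes a carrier needed for FAD balance in mitochondria, fell. FLX1 (YIL134W, IX, 97395 to 98330) went from 23.0 and 24.8 FPKM to 7.77 and 4.67, a 3.84-fold lower mean (log2 fold -1.82, SE 0.29, limma adjusted p = 0.013). TPC1, the thiamine pyrophosphate carrier gene, was at 14.3 ± 2.65 and 16.6 ± 0.261 FPKM and did not pass. The NAD carrier genes YIA6 and YEA6 did not pass either. YEA6 was at 60.8, 56.1, 62.2 and 70.5 FPKM, well above YIA6 at 5.09, 5.82, 9.36 and 7.35, and for each gene both CR libraries were above both NR libraries.

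MRS3 and MRS4 encode the paralogous iron carriers of the inner membrane. Their levels were close in NR, where MRS4 made up 50.2% and 51.7% of their summed FPKM, and in CR its share was 69.0% and 72.6%. MRS4 (YKR052C, XI, 532550 to 533464) rose from 57.7 and 57.2 FPKM to 155 and 132 (log2 fold 1.30, SE 0.20, limma adjusted p = 0.012). MRS3 (YJL133W, X, 160619 to 161563) was at 57.4, 53.5, 69.5 and 49.9 FPKM, with CR libraries on both sides of NR, and its log2 fold of 0.09 turned negative after quantile normalization, with median scaling and without CR A. MTM1, a gene needed to activate manganese superoxide dismutase, was at 58.6 ± 3.58 and 94.7 ± 31.8 FPKM and did not pass (limma adjusted p = 0.14). The log2 fold of MTM1 was 0.99 without CR B and 0.30 without CR A.

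**Figure D3:**
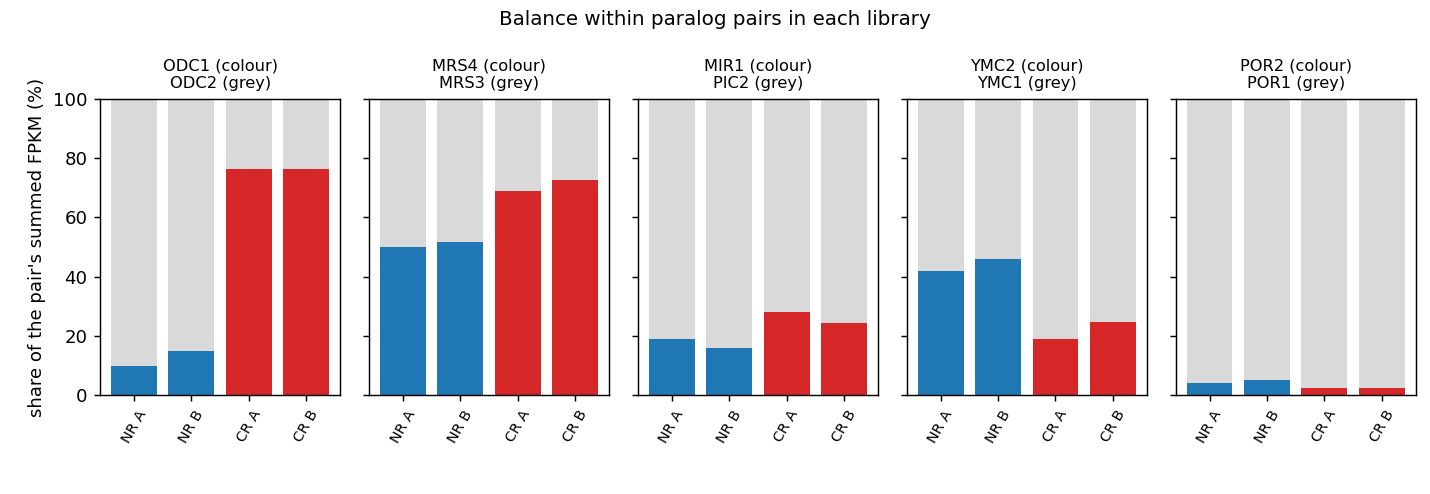
Share of each gene, in percent, of the summed FPKM of its paralog pair in each library, with the first gene named in colour (blue NR, red CR) and the second in grey. ODC1 goes from 9.87% and 14.9% in NR to over 76% in CR, and the NR and CR shares do not overlap in any of the 5 pairs shown. For single genes, both CR libraries were above both NR libraries in 39.2% of all genes and below them in 33.8%.

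POR1 encodes the main porin, the channel through which most metabolites cross the outer membrane, and POR2 its paralog. POR1 (YNL055C, XIV, 517994 to 518845) had the highest FPKM of the 32 genes in all 4 libraries, at 1219, 1082, 1338 and 754, and did not pass (log2 fold -0.19, limma adjusted p = 0.69). CR A was above and CR B below both NR libraries, and the log2 fold was 0.22 without CR B and -0.61 without CR A. POR2 (YIL114C, IX, 149143 to 149988) fell from 52.8 and 56.5 FPKM to 31.2 and 19.8 (log2 fold -1.10, SE 0.27, limma adjusted p = 0.035), a call lost without the filter on low values. Its share of the summed FPKM of the porins was 4.15% and 4.96% in NR and 2.28% and 2.56% in CR. UGO1, an outer membrane member of the carrier family needed for mitochondrial fusion, rose from 22.7 and 25.7 FPKM to 51.3 and 50.2 (log2 fold 1.04, SE 0.19, limma adjusted p = 0.018).

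By mean FPKM the order in NR was led by POR1, PIC2, PET9, ODC2 and DIC1, and in CR by POR1, PET9, DIC1, PIC2 and ODC1. The values of PIC2 and PET9 overlapped in NR, as did those of PET9 and ODC2. In CR, PET9 overlapped POR1, DIC1 overlapped PET9, and PIC2 overlapped PET9, DIC1 and ODC1. Within each CR library, POR1 nonetheless ranked 1 and PET9 ranked 2. The median over the 32 genes was 39.7 FPKM in NR and 52.5 in CR, beside 55.2 and 61.5 for all genes tested. The log2 ratio of paralogs, CR minus NR, was 4.50 for ODC1 over ODC2, 3.27 for PET9 over AAC3, 1.38 for YMC1 over YMC2, 0.91 for POR1 over POR2, 0.74 for MIR1 over PIC2 and -1.21 for MRS3 over MRS4. In these 6 pairs the ratios of the NR and CR libraries did not overlap. They overlapped for PET9 over AAC1 (-0.01) and, on this scale, for YIA6 over YEA6 (0.35). Groups of 2 libraries were often apart in these data. For single genes, both CR libraries were above both NR libraries in 39.2% of all genes and below them in 33.8%. No such share was computed for ratios of genes. As FPKM without the added 1, the share of YIA6 in its pair was 7.73% and 9.39% in NR and 13.1% and 9.44% in CR, so that NR B and CR B were barely apart.

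**Figure D4:**
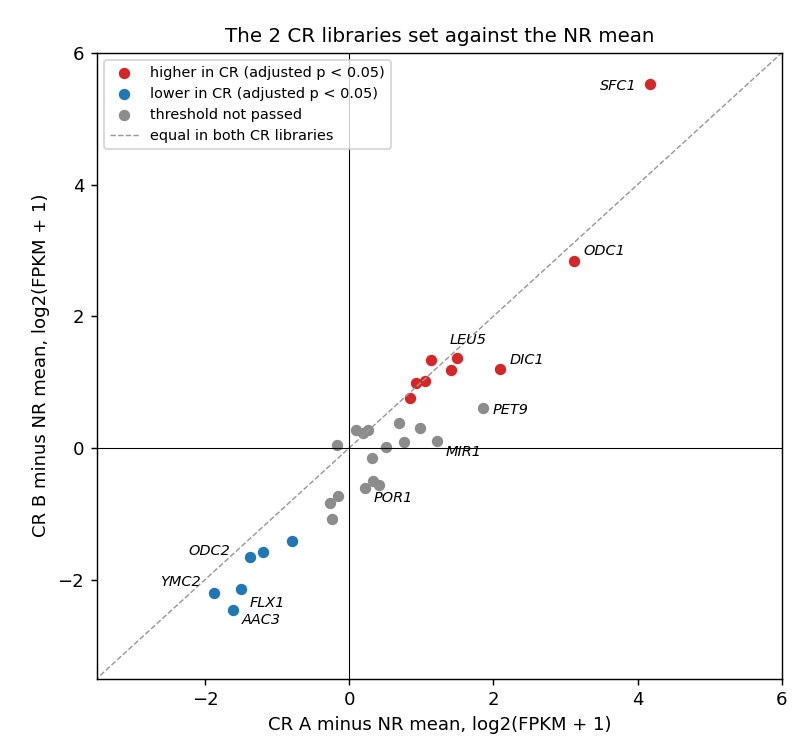
Difference of each CR library from the NR mean in log2(FPKM + 1), CR A on the horizontal and CR B on the vertical axis, with the dashed line where both are equal. SFC1 and ODC1 lie far out in both libraries, whereas PET9 and MIR1 lie well below the dashed line, higher in CR A than in CR B.

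Of 5 other genes of the carrier family, 1 rose and 4 did not pass. Beside this and the counts below, 17.7% of all genes were higher and 13.2% lower. The gene that rose was the carnitine carrier gene CRC1 (3.92 and 4.87 FPKM in NR, 122 and 135 in CR, log2 fold 4.59, limma adjusted p = 0.0011). Pyruvate enters mitochondria by a separate carrier made of Mpc1 with either Mpc2 or Mpc3. Of its 3 genes, 2 rose: MPC1, listed as FMP37, was at 79.0, 99.3, 668 and 1158 FPKM (log2 fold 3.30, limma adjusted p = 0.0053), and MPC3, listed as FMP43, was at 165, 243, 1509 and 2186 (log2 fold 3.17, limma adjusted p = 0.0054). MPC2, listed as YHR162W, was at 1904, 2333, 1304 and 1487 FPKM and did not pass (log2 fold -0.60, limma adjusted p = 0.15). MPC3 was 7.98% and 9.45% of the summed FPKM of MPC2 and MPC3 in NR and 53.6% and 59.5% in CR. Carriers reach the inner membrane through the receptor Tom70, the small Tim proteins and the TIM22 complex. Of 10 genes of that route 1 rose, TIM13 (194 and 217 FPKM in NR, 413 and 344 in CR, log2 fold 0.88, limma adjusted p = 0.037). None fell and 9 did not pass, beside 17.7% higher and 13.2% lower among all genes. In all 10 CR A was above CR B, beside 61.8% of all genes.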

How the data were processed

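Total RNA of 4 libraries was measured. Per the labels' protocols, RNA was extracted with a QIAGEN miRNeasy kit and made into libraries with an Illumina small RNA kit. The submitters' processing notes name CASAVA 1.8.2, Bowtie, Cufflinks 2.0.2 and the build sacCer2; no source used here states their settings, strand use or the handling of multiple matches. A single table of FPKM, 1 column per library, was deposited, and 0 columns were left unmatched. Read totals were not used here. Of 6007 gene IDs placed in R64, 5975 had the R64 position once 1 was added to the start, among them all 32 members, so positions are R64.

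CR was compared with NR in limma 3.58.1 (R 4.3.3, intensity trend, no covariate) on log2(FPKM + 1) over the 6355 gene rows whose mean reached 1 FPKM. The fit was checked on simulated data with few changed genes, folds larger than most reported here and the same spread in both conditions. In the data the SD between replicates over genes was 0.27 in NR and 0.45 in CR on the log2 scale. The check therefore does not cover small folds or unequal spread. Tables and plots used Python 3.11.15, pandas 2.3.3, NumPy 2.4.6, Biopython 1.88 and matplotlib 3.10.9. The promoter window of SFC1 is not reported here. Paralog shares and ratios carry no test. All members are named; members past the threshold and in the 8 fixed comparisons of paralogs get every library's value. The members, lists and motifs were chosen with earlier results of these data known. Alternatives were pseudocounts of 0.1 and 5, filters at 0 and 10 FPKM, median scaling, a fit with no intensity trend, quantile normalization, a replicate block, and leaving out each library; those of the paralog ratios were added after seeing the data.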

Additional observations from a re-analysis of the deposited data

How the results depend on the processing

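None of the 15 calls among carriers and porins changed direction under the 12 alternatives. Leaving out 1 library moved the members called higher from 9 to between 2 and 13 and those called lower from 6 to between 0 and 10, and all calls from 1962 to between 116 and 3288 (72 to 1632 higher, 44 to 1656 lower). With 1 library left in a condition, it was assumed to vary like the other condition. Without NR A and without NR B, the log2 fold was 4.68 and 5.02 for SFC1 and 2.84 and 3.13 for ODC1. Without the filter, all calls numbered 1242 (464 lower) and DIC1, OAC1 and POR2 lost theirs. AAC3 and YIA6 have means under 10 FPKM and left the test at that filter. Of the 17 genes not called, 5 changed the sign of the log2 fold. With each library left out in turn it ran from -0.50 to 0.34 for PIC2 (0.16 without NR B), from -0.55 to 0.42 for YHM2 (0.0072 without NR A), from -0.17 to 0.039 for CTP1, from -0.61 to 0.22 for POR1 and from -0.15 to 0.32 for MRS3. MRS3 was also at -0.042 under median scaling and -0.036 after quantile normalization. The log2 fold of AAC3 was -2.37 at a pseudocount of 0.1 and -1.30 at 5. The ratio of PET9 over AAC3, CR minus NR, was 3.61 at a pseudocount of 0.1 and 2.52 at 5, and that of YMC1 over YMC2 1.04 at 5. A larger pseudocount shrinks the log2 folds of low genes, and AAC3 (3.97 and 1.77 FPKM) and YMC2 (8.18 and 6.28 FPKM) were low in CR. The cause of the other shifts was not tested.

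The labels give both conditions replicates A and B but no shared culture, and the differences between replicates correlated at 0.083 across genes. With the replicate block 1150 genes (18.1%) were higher and 986 (15.5%) lower, and 9 and 6 of the members, with no call among them changed. With 2 libraries per condition, leaving out 1 cannot move a paralog ratio beyond the replicate SD, so this gave no check of those ratios.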
